A study of Mus musculus with 7 samples.

Results

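Immunoglobulin transcripts were followed in 10 genes, the heavy chain constant genes Ighm, Igha and Ighg3 and the kappa variable segments Igkv5-43, Igkv6-20, Igkv10-96, Igkv9-120, Igkv4-55, Igkv8-30 and Igkv19-93, out of 19937 genes with a probe set of their own. The genes were chosen by name with earlier results of these arrays in view, and each is represented by the probe set, among those annotated with 1 gene symbol, that had the highest mean over all 7 arrays. Their differences between the groups are therefore given as a description, without a test. The reconSCID group (3 samples) came from NOD mice with the SCID mutation, labelled as one of DNAPK, and the reconRAG1KO group (4 samples) from NOD mice null for RAG1. Pups of both strains, aged 2 to 4 days, received bone marrow by intraperitoneal injection 6 h after irradiation with 200 rad, and 6 to 8 weeks later the MHCIIhi fraction of medullary epithelial cells (MECs) was sorted from their thymi into Trizol. The samples are labelled biological replicates. The labels do not say how many thymi went into each, nor the genotype of the donor marrow.

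An antibody is built from heavy and light chains, and each chain joins a variable part, which binds antigen, to a constant part. The constant gene of the heavy chain sets the isotype: Ighm encodes that of IgM, the first isotype a B cell makes, Igha that of IgA, the main antibody of mucosal surfaces, and Ighg3 that of IgG3. Most mouse light chains are kappa chains, and each B cell assembles its own from 1 of many variable segments by a recombination that needs both RAG1 and the kinase DNA-PK. Mice lacking either protein form almost no mature B cells of their own. B cells nevertheless occur in the normal thymus, mostly in the medulla, where they present antigen to developing T cells.

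The arrays were not a uniform set. ReconSCID replicate 2 and reconRAG1KO replicate 4 resembled each other (r = 0.972 over 34760 probe sets) more than any of the other 5 (r = 0.922 to 0.947), and those 5 formed a tight set (r = 0.976 to 0.990). Each set held both groups, so differences are given over all 7 arrays, from a fit that blocks on the set, in the larger set of 5 arrays alone, and in the smaller set of 2 arrays alone, where 1 reconSCID array stands against 1 reconRAG1KO array. The sets were taken by clustering these same values and not from a label, so p-values of the blocked fit are a description. Median intensities lay between 88.6 and 96.3, and the number of arrays limits the precision. Aire, the regulator of tissue-restricted antigens in medullary epithelium, measured 10.70, 11.46 and 9.73 log2 units in reconSCID replicates 1 to 3. In reconRAG1KO replicates 1 to 4 it measured 10.90, 10.89, 11.09 and 11.93. Genes of dendritic cells and macrophages were bright as well. Means over all 7 arrays were 12.37 for Lyz2 and 10.75 for C1qa, against 10.96 for Aire. The level of Aire thus does not give the share of medullary epithelial cells in a sample.

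Ighm was high in reconSCID replicates 1 and 3 only. Its log2 intensity (probe set 10402991) was 8.39, 7.16 and 8.09 in reconSCID replicates 1 to 3, against 6.84, 7.26, 6.91 and 7.25 in reconRAG1KO replicates 1 to 4. ReconSCID replicate 2 lay inside the range of the reconRAG1KO samples, so the groups overlapped. The means were 7.88 ± 0.64 (SD, n = 3) in reconSCID and 7.07 ± 0.22 (SD, n = 4) in reconRAG1KO, a log2 difference of 0.81 ± 0.30 (SE of the limma fit). Blocking on the array set gave 0.85 for Ighm, the larger set alone gave 1.24, and within the smaller set it was -0.10. Both further probe sets of Ighm also had higher means in reconSCID, by 0.65 (probe set 10402864) and 1.15 (probe set 10403069) log2 units, and overlapped between the groups. In the second of them the reconSCID arrays read 7.15, 3.98 and 5.92, against 4.62, 5.24, 3.91 and 4.36 in reconRAG1KO, so replicate 2 of reconSCID was again the low array of its group. Probe set 10402991 shares 0 annotated accessions with either of the further 2. Which part of the heavy chain each of them measures is not settled by the annotation.

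Igha showed the same split inside the reconSCID group, with a wider spread in both groups. Its log2 intensity (probe set 10403034) was 9.31, 6.52 and 9.50 in reconSCID replicates 1 to 3, against 7.73, 6.59, 8.54 and 7.01 in reconRAG1KO replicates 1 to 4. Replicate 2 was the lowest of all 7 arrays, while replicates 1 and 3 were above every reconRAG1KO array. The difference was 0.97 ± 0.82 (SE), with a 95% interval from -0.98 to 2.93, and was 1.94 without reconSCID replicate 2 and 0.44 without reconSCID replicate 3. Within the larger set it was 1.78 and within the smaller set -0.50. A further probe set of Igha (10403063) differed by 0.49. Both probe sets are annotated through the same 7 cDNA accessions. A rearranged heavy chain cDNA holds variable as well as constant sequence, so the annotation does not settle which part of the chain these probes measure.

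Ighg3 stayed near the bottom of the scale in both groups. Its values (probe set 10403046) were 3.65, 4.10 and 3.65 in reconSCID, against 3.65, 3.52, 3.50 and 3.96 in reconRAG1KO. The highest array of each group was the one that belongs to the smaller set. The difference was 0.14 ± 0.17 (SE). The mean of this probe set ranked at the 7.62 percentile of all probe sets, 3 of its 7 deposited values were identical, and a difference in IgG3 transcripts would be hard to see at this level.

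**Figure D1:**
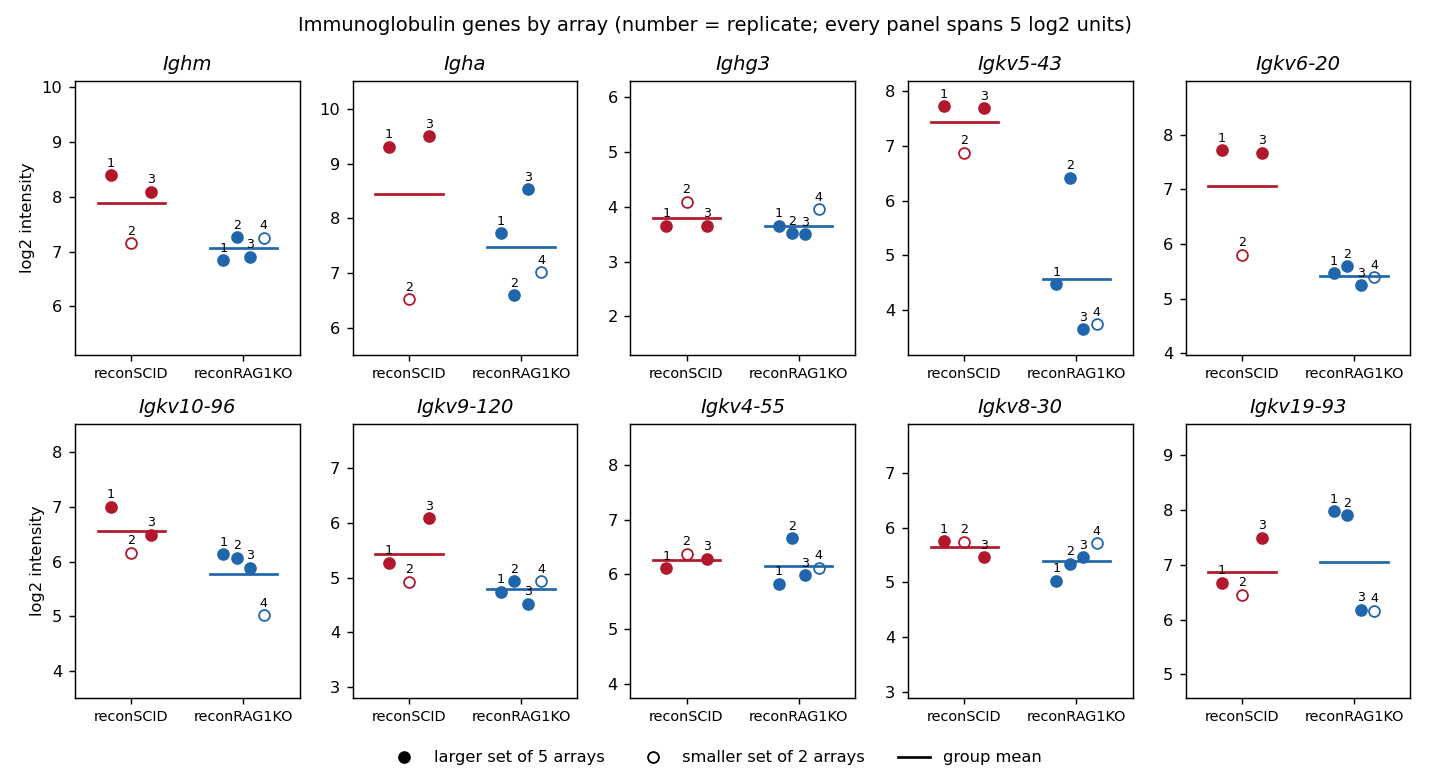
Log2 intensity of the 10 immunoglobulin genes in each array, reconSCID left of reconRAG1KO; points are arrays with their replicate number, open points are the smaller set of 2 arrays, and lines are group means. ReconSCID replicates 1 and 3 are the high arrays for Ighm, Igha and Igkv6-20, while Igkv5-43 is high in all 3 reconSCID arrays and in reconRAG1KO replicate 2.

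Among the kappa segments, Igkv5-43 had the largest difference of the 10 genes. Its log2 intensity (probe set 10545217) was 7.73, 6.88 and 7.69 in reconSCID replicates 1 to 3, against 4.47, 6.42, 3.65 and 3.74 in reconRAG1KO replicates 1 to 4. The groups did not overlap, although reconRAG1KO replicate 2 came close to reconSCID replicate 2. The means were 7.43 ± 0.48 (SD, n = 3) in reconSCID and 4.57 ± 1.28 (SD, n = 4) in reconRAG1KO, a difference of 2.86 ± 0.69 (SE), or 7.26-fold. Unlike for Ighm and Igha, it was as large within the smaller set (3.14) as within the larger set (2.86). Leaving out single arrays gave 2.55 to 3.48. ReconRAG1KO replicates 3 and 4 lay at the level of Ighg3, near the bottom of the scale, so the fold rests partly on low values. With a pseudocount of 16 the log2 difference was 2.16.

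Igkv6-20 was far above the reconRAG1KO range in replicates 1 and 3 of reconSCID and close to it in replicate 2. Its values (probe set 10545242) were 7.71, 5.80 and 7.67 in reconSCID, against 5.47, 5.59, 5.24 and 5.39 in reconRAG1KO. The groups did not overlap, and the reconRAG1KO samples lay close together, with an SD of 0.15. The difference was 1.64 ± 0.46 (SE), with 2.26 within the larger set and 0.41 within the smaller set. Replicate 2 thus stood apart from the other reconSCID samples for this segment as it did for Ighm and Igha.

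Igkv10-96 was the third segment whose groups did not overlap, by a narrow margin. It measured (probe set 10545173) 7.0, 6.16 and 6.49 in reconSCID, against 6.14, 6.07, 5.89 and 5.02 in reconRAG1KO. The difference was 0.77 ± 0.32 (SE), or 0.84 when blocked on the array set, and 0.52 without reconRAG1KO replicate 4, its lowest array. Within the smaller set it was 1.14 and within the larger set 0.71. For Igkv10-96 and Igkv5-43 the pair of arrays in the smaller set thus gave a difference above that of the larger set, while for Ighm it gave one below 0.

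The remaining kappa segments overlapped between the groups. Igkv9-120 (probe set 10538882) read 5.27, 4.92 and 6.08 in reconSCID, against 4.74, 4.94, 4.53 and 4.94 in reconRAG1KO, a difference of 0.64 ± 0.28 (SE) that was 0.31 without reconSCID replicate 3 and -0.01 within the smaller set. Igkv8-30 (probe set 10545233) differed by 0.26 ± 0.18 (SE) and Igkv4-55 (probe set 10545210) by 0.11 ± 0.20 (SE). Igkv19-93 was highest in 2 of the reconRAG1KO samples. It measured (probe set 10545177) 6.67, 6.45 and 7.50 in reconSCID, against 7.98, 7.91, 6.18 and 6.16 in reconRAG1KO. Its difference was -0.18 ± 0.57 (SE), and it was 0.12 without reconRAG1KO replicate 1. The further probe set of Igkv19-93 (10545182) differed by 0.14.

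The differences of the chosen segments followed no steady trend along the kappa locus. In the RefSeq order of GRCm38.p6, from the segment farthest from the constant gene Igkc to the nearest, the log2 differences were 0.64 for Igkv9-120, 0.77 for Igkv10-96, -0.18 for Igkv19-93, 0.11 for Igkv4-55, 2.86 for Igkv5-43, 0.26 for Igkv8-30 and 1.64 for Igkv6-20. Among the chosen segments, the one with the largest difference thus lay between 2 of the least different. Variable segments resemble each other in sequence, and a probe set may also bind transcripts of relatives. How much each did so, and how alleles of the NOD strain affect the signal, was not tested.

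As a group, the kappa segments had a median log2 difference of 0.64, with 6 of 7 higher in reconSCID, and the isotype genes of 0.81, with 3 of 3 higher. With 3 isotype genes this median is the value of Ighm alone, and Ighg3, at 0.14, lay near the bottom of the scale. Over all 19937 genes the median was -0.01 and 47.6% were higher. Groups did not overlap, with reconSCID higher, for 3 of 7 kappa segments and 0 of 3 isotype genes, against 1.23% of all genes. The opposite order was seen for 0 of the 10 and for 1.54% of all genes. A mean higher in reconSCID by at least 1 log2 unit was measured for 2 of the 10, Igkv5-43 and Igkv6-20, and for 0.0502% of all genes. These counts describe genes picked with the contrast in view.

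The order of the kappa and isotype medians differed between the array sets. In the smaller set the kappa median was 0.29, with 6 of 7 higher, and the isotype median -0.10, with 1 of 3 higher. Within the larger set the medians were 0.71 for kappa and 1.24 for isotype genes. In both sets the isotype median was again the value of Ighm. Over all arrays the kappa median minus the isotype median was -0.17, a difference without a test. In reconSCID replicate 2 the kappa segments lay on average 0.08 log2 units above their own means over the 7 arrays, while the isotype genes lay at -0.42. In that array Igkv5-43 was the segment farthest above its own mean, and Igha the gene farthest below it. Igkv6-20, Igkv9-120 and Igkv19-93 lay below their own means there, and Ighg3 above. The kappa average of reconRAG1KO replicate 2, 0.16, was above that of reconSCID replicate 2.

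**Figure D2:**
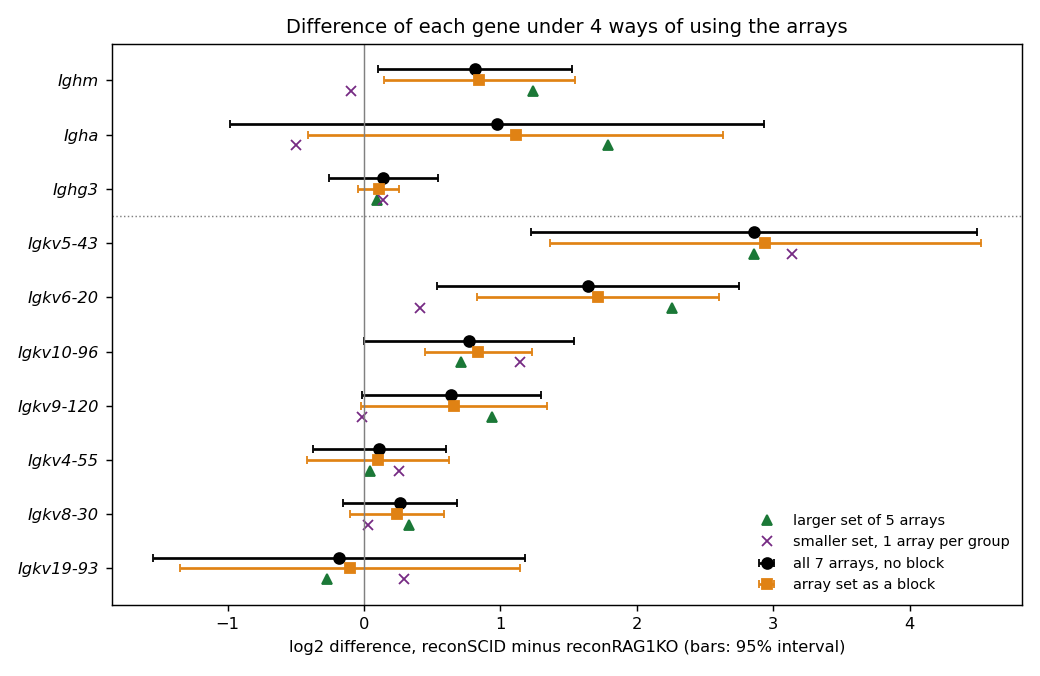
Log2 difference, reconSCID minus reconRAG1KO, of each gene over all 7 arrays and blocked on the array set (bars, 95% intervals of the limma fit), within the larger set and within the smaller set of 1 array per group. Igkv5-43 stays near 3 in all 4, whereas Ighm and Igha are below 0 in the smaller set.

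No gene of the series passed the test between the groups. Of the 19937 genes, 0% passed limma's adjusted threshold of 0.05. The unadjusted threshold of 0.05 was passed by 0.863% with reconSCID higher and by 1.19% with reconSCID lower. Only genes outside the 10 are set against these shares.

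Probe sets annotated with several symbols hold much of the remaining immunoglobulin signal and cannot be assigned to 1 gene. There were 16 with at least 1 immunoglobulin symbol, 4 for the heavy chain, 10 for kappa and 2 for lambda. Of these, 14 were higher in reconSCID, with a median difference of 0.70 over the 16 and a range from -0.79 to 2.12. Over all 1321 probe sets with several symbols the median was -0.02. Symbols of the 10 genes occur among theirs, Igha on 4, Ighg3 and Igkv9-120 on 2 each, and Igkv10-96 and Igkv19-93 on 1 each. The 16 are therefore described without a test, like the 10 genes. After adjustment 0 of all probe sets passed. Of the 16, 11 shared an annotated accession with another of them and 2 with a probe set of the 10 genes, so they are not independent.

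The largest of these differences, singled out after its values were seen, was in a heavy chain probe set (10403015). It read 8.12, 7.51 and 7.96 in reconSCID, against 6.53, 6.50, 5.71 and 4.23 in reconRAG1KO, a difference of 2.12 ± 0.57 (SE). In it reconSCID replicate 2 was high along with replicates 1 and 3, unlike in the probe sets given above for Ighm and Igha. All 4 heavy chain probe sets with several symbols, this one included, carry the symbol Igha among others. In the others replicate 2 was the lowest reconSCID array and the groups overlapped, as in the probe sets given above for Igha. It read 7.01 in 10403018, 5.21 in 10403009 and 4.38 in 10403021. Among the probe sets annotated to Igha, replicate 2 thus stood above every reconRAG1KO array only in 10403015. There too it was the lowest of its group. A kappa probe set (10545175), also singled out afterwards, read 9.03, 9.44 and 8.48 in reconSCID, against 7.91, 8.19, 7.13 and 6.78 in reconRAG1KO, and differed by 1.48 ± 0.40 (SE). The 2 of the 16 with lower means in reconSCID, both kappa probe sets, were those that also carry a symbol not beginning with Ig. What the gene of that symbol encodes was not checked. Igkv4-91, the remaining gene with a kappa symbol of its own, was near the bottom of the scale, with 3.51 ± 0.19 (SD, n = 3) in reconSCID and 3.69 ± 0.19 (SD, n = 4) in reconRAG1KO.

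Genes of B cell identity and signalling, a list written with earlier results known, mostly had higher means in reconSCID. Of 23 measured, 21 were higher, and the median difference was 0.54 log2 units. At an unadjusted p under 0.05, 6 of 23 were higher, against 0.863% of all genes, and 0 passed after adjustment. When the fit blocked on the array set, 11 were higher at that threshold, against 5.34% of all genes, and after adjustment 0 passed. Without reconSCID replicate 3 the median of the list was 0.21, and without reconSCID replicate 2 it was 0.84. Fcmr, the Fc receptor for IgM on B cells, measured 7.88, 7.39 and 8.88 in reconSCID, against 6.89, 6.72, 6.58 and 6.76 in reconRAG1KO. Its difference was 1.31 ± 0.33 (SE, limma unadjusted p = 0.00567), and it was the 1 of 23 whose groups did not overlap, against 1.23% of all genes with reconSCID higher.

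The B cell transcription factor genes Ebf1 and Pax5 differed by 0.91 ± 0.32 and 1.13 ± 0.44 (SE), the adaptor gene Bank1 by 1.31 ± 0.51 (SE) and Fcrl1 by 0.99 ± 0.34 (SE), all with groups that overlapped or shared a boundary value. The brightest members of the list, Ly86, Blnk and Spib, which dendritic or epithelial cells of the thymus also express, differed by 0.10, -0.07 and -0.16. Cd79a and Ms4a1, singled out as defining B cell markers after their values were seen, differed by 1.35 ± 0.69 and 1.47 ± 0.74 (SE). Those differences were the largest of the list. Other B cell genes of the list, singled out likewise, differed less: Cd79b by 0.36 ± 0.27, Cd22 by 0.55 ± 0.31, Cd72 by 0.14 ± 0.48 and Btk by 0.16 ± 0.49 (SE). Cd79a encodes a signalling chain of the B cell receptor and read 9.25, 7.35 and 10.40 in reconSCID, against 8.10, 8.02, 7.29 and 7.18 in reconRAG1KO. The highest array for Cd79a was reconSCID replicate 3, whereas Ighm and Igkv5-43 were as high in replicate 1 as in replicate 3.

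Within the smaller set the B cell list had a median of -0.01, with 11 of 23 higher, beside 0.29 for the kappa segments and -0.10 for the isotype genes. Summed over the list, linear intensities were 7501, 4441 and 11122 in reconSCID replicates 1 to 3, against 5924, 5507, 5264 and 4571 in reconRAG1KO. ReconSCID replicates 3 and 1 thus had the highest sums and replicate 2 the lowest of all 7. In sorted bulk samples a difference in the number of B cells and a difference in RNA per cell cannot be told apart, and the part of this list in the immunoglobulin values was not tested.

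Genes of plasma cells and antibody secretion lay near 0 as a list. Their median difference was 0.05 over 15 genes, with 9 higher. At an unadjusted p under 0.05, 0 were higher and 1 lower, against 0.863% and 1.19% of all genes. When the fit blocked on the array set, 4 of 15 were higher at that threshold, against 5.34% of all genes, and 0 passed after adjustment. The 1 lower gene of the fit without a block was Tnfrsf17, a survival receptor of plasma cells. It measured 6.22 ± 0.22 (SD, n = 3) in reconSCID and 6.59 ± 0.16 (SD, n = 4) in reconRAG1KO. Jchain, which joins IgM and IgA into polymers and was singled out after its values were seen, read 10.30, 7.26 and 9.75 in reconSCID, against 8.88, 9.08, 8.40 and 7.08 in reconRAG1KO. Jchain shared with Igha the low value of reconSCID replicate 2, and its difference was 0.74 ± 0.82 (SE). Mzb1, a chaperone of IgM assembly, differed by 0.56 ± 0.41 (SE), and Xbp1, a factor of the secretory programme that epithelial cells also use, by 0.15 ± 0.12 (SE).

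**Figure D3:**
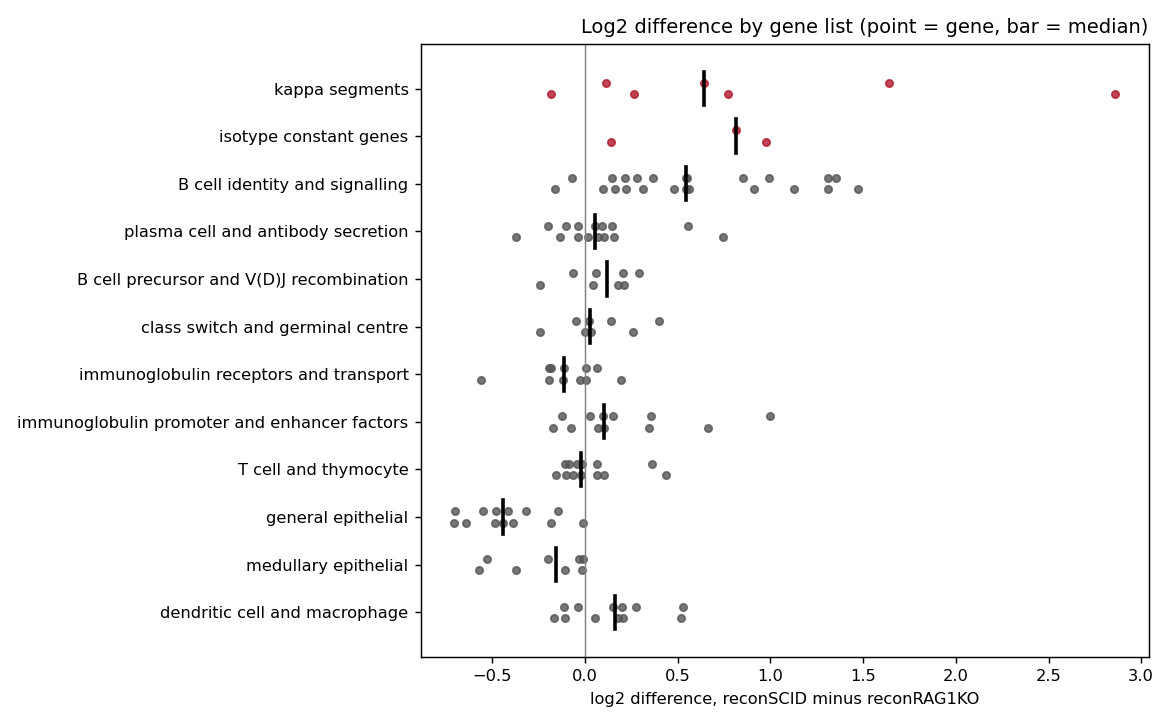
Log2 difference, reconSCID minus reconRAG1KO, of every measured gene in the kappa and isotype groups and in 10 gene lists; points are genes and bars are medians. The kappa, isotype and B cell medians lie at 0.64, 0.81 and 0.54, the plasma cell median at 0.05 and the general epithelial median at -0.44.

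Lists around the making and the use of antibody lay close to 0. B cell precursor and recombination genes had a median of 0.12 over 8 genes. In them the surrogate light chain genes Igll1 and Vpreb1 differed by -0.25 and 0.29, and Rag1 measured 8.26 ± 1.18 (SD, n = 3) in reconSCID and 8.22 ± 0.84 (SD, n = 4) in reconRAG1KO. Developing thymocytes also express Rag1, so its level does not check the genotype. Class switch and germinal centre genes had a median of 0.03 over 8 genes, with Gna13 at 0.40.

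Receptors and carriers of antibody had a median of -0.12 over 11 genes. Pigr, which carries IgA and IgM across epithelia, measured 6.40, 7.70 and 6.03 in reconSCID, against 7.05, 6.93, 7.05 and 8.05 in reconRAG1KO. Both arrays of the smaller set were its highest. The inhibitory receptor gene Fcgr2b differed by 0.19 ± 0.62 (SE). Factors that bind immunoglobulin promoters and enhancers had a median of 0.10 over 12 genes, and 1 of 12 was higher at an unadjusted p under 0.05, against 0.863% of all genes. It was Mef2c, a factor of B cell and myeloid genes, at 7.80, 7.02 and 8.48 in reconSCID, against 7.0, 6.68, 6.67 and 6.72 in reconRAG1KO. Ikzf3, a zinc finger factor of B cells, differed by 0.66 ± 0.36 (SE). In these 4 lists 0 genes passed after adjustment.

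**Figure D4:**
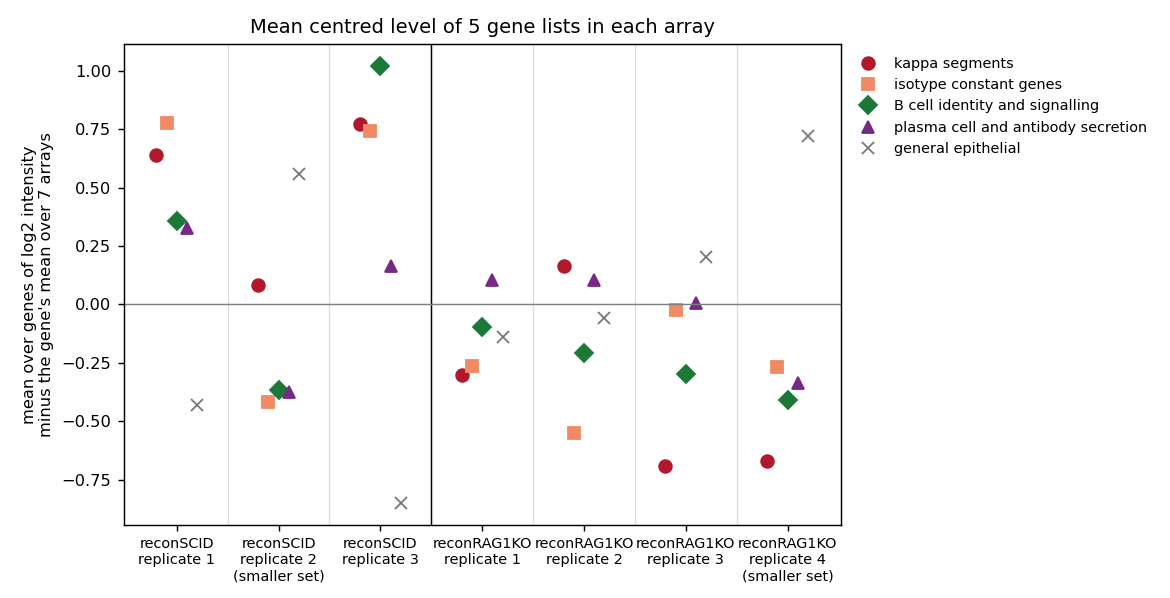
Mean over the genes of a list of the log2 intensity minus each gene's mean over the 7 arrays, for 5 lists in the 3 reconSCID and 4 reconRAG1KO arrays. ReconSCID replicates 1 and 3 are above 0 for kappa, isotype and B cell genes and below 0 for general epithelial genes. ReconSCID replicate 2 is at 0.08 for kappa and -0.42 for isotype genes, and reconRAG1KO replicate 2 is at 0.16 for kappa.

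Markers of other cell types also differed between arrays. General epithelial genes had a median difference of -0.44, with 13 of 13 lower in reconSCID, and summed intensities of 7621, 17878 and 5205 in reconSCID, against 9176, 10367, 12713 and 19430 in reconRAG1KO. Of these, Cldn4, a tight junction protein, differed by -0.71 ± 0.24 (SE) and the simple epithelial keratin gene Krt8 by -0.64 ± 0.38 (SE). The median of this list was -0.71 within the larger set and -0.11 within the smaller set, where 4 of 13 were higher. At an unadjusted p under 0.05, 1 of 13 was lower, against 1.19% of all genes, and 0 passed after adjustment. The epithelial sum was thus lowest in reconSCID replicates 3 and 1, where Ighm, Igha and Igkv6-20 were highest. Dendritic cell and macrophage genes had a median of 0.16 over 12 genes and sums of 14108, 5238 and 18912 in reconSCID, against 12200, 11375, 10678 and 6635 in reconRAG1KO. T cell and thymocyte genes had a median of -0.02 over 13 genes, with sums of 2223 to 4844 in reconSCID and 2541 to 3989 in reconRAG1KO. The 8 medullary genes had a median of -0.16. Xist, transcribed from the inactive X chromosome of females and singled out after its values were seen, read 8.02, 5.68 and 9.61 in reconSCID, against 5.11, 9.96, 6.22 and 5.26 in reconRAG1KO, and Igkv5-43 was high in its 3 highest arrays and in reconSCID replicate 2. Eif2s3y, a gene of the Y chromosome singled out likewise, read 8.87, 7.85 and 8.34 in reconSCID, against 8.65, 7.03, 8.55 and 7.92 in reconRAG1KO. Xist and Eif2s3y were thus both high in reconSCID replicates 1 and 3, and these values do not assign each sample to 1 sex. The part of these cell types and of sex in the immunoglobulin values was not tested.

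Among the genes compared, those whose profiles over the 7 arrays were most like the kappa mean were not B cell genes of the lists. Ms4a1 and Bank1 of the B cell list lay below the median of all probe sets and were not compared. Among 11547 genes outside the immunoglobulins with a mean above the median of all probe sets, Ap1s3, a subunit of a clathrin adaptor, came first with a Pearson r of 0.988. Htatsf1 (0.970), Lin54 (0.957), Uhrf2 (0.956), Kmt2c (0.954), Urb2 (0.951), Cab39 (0.945) and Pign (0.945) followed. After centring each array set, Ap1s3 again came first (0.993) and Lin54 was again among the 8. For Ighm the first 3 were Slc39a6 (0.973), Secisbp2l (0.972) and Mdfic (0.970), and after centring they were Ube2d3 (0.991), Fem1c (0.988) and Osbpl8 (0.985). With 7 arrays and so many genes, such values describe these arrays only.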

How the data were processed

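The authors deposited linear intensity values, 1 per probe set and array, already at nearly the same level in all arrays. The sources used here do not give the method. Per the labels' protocols, biotinylated cRNA was made from 6 µg of total RNA by the Affymetrix procedure. The 34760 probe sets held no value below 1, and log2 was taken with no pseudocount. In 46.2% of them, and in 3 of the 10 genes described, at least 2 arrays held the same value. The annotation gave 1 symbol to 21640 probe sets, several to 1321 and none to 11799, and 21553 of those with 1 symbol were found in RefSeq (GRCm38.p6), used for names and gene order only.

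All probe sets were fitted with limma 3.58.1 in R 4.3.3 (lmFit, eBayes). Two-sided p-values were adjusted by Benjamini-Hochberg across the whole array, and 0.05 was the threshold. Counts use 1 probe set per gene. The fit was tested on simulated data. The genes described, the lists and the array sets were chosen with earlier results of these data known. Named genes are the 10, Aire and Rag1, up to 5 per list with the smallest unadjusted p, up to 3 with the highest mean, the 8 with the most similar profile, and those said to be singled out. Some listed genes, among them Mef2b, Fcgrt, Pou2f1, Nfkb1 and Lck, are not analysed here.

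Alternatives were quantile normalization, median centring, a pseudocount of 16, a filter on low values, array weights, the array sets, the replicate number, averaging the probe sets of each gene, and leaving out each array.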

Additional observations from a re-analysis of the deposited data

Results flagged for a closer look

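A sample lay far from the other 3 of its group for 4 of 47 gene and list values examined in reconRAG1KO, and chance alone singles out about 1 group in 20. Igkv4-91 read 3.973 in reconRAG1KO replicate 4 and 3.597 in each of the others. Pigr read 8.053 in reconRAG1KO replicate 4 and 6.929 to 7.053 in the others. Igll1 read 7.152 in reconRAG1KO replicate 3 and 6.811 to 6.818 in the others. Mef2c read 7.0 in reconRAG1KO replicate 1 and 6.667 to 6.723 in the others. The 10 immunoglobulin genes gave no such sample in reconRAG1KO, and groups of 3 were not examined.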

How the results depend on the processing

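Of 668 values recomputed for the medians and named genes, 642 moved by less than 1 SD between arrays, 20 by more, and 6 that had exceeded 1 SD changed sign. The filter on low values kept 3 of the 10 genes, Ighm, Igha and Igkv19-93, so that the kappa median became -0.18, the value of Igkv19-93 alone, and the kappa minus isotype difference -1.08. Within the smaller array set the kappa median was 0.29, the isotype median -0.10, the kappa minus isotype difference 0.39, the B cell median -0.0111, and the differences of Ighm, Igkv9-120 and Xbp1 were -0.10, -0.0136 and -0.0778. Within the larger set the isotype median was 1.24. With array weights it was 1.30, the kappa minus isotype difference was -0.68, and 57 probe sets of the series passed. At an unadjusted p under 0.05, 1159 passed. The cause of these changes was not tested. Leaving out single arrays gave kappa medians of 0.36 (without reconSCID replicate 3) to 0.89, isotype medians of 0.44 (without the same array) to 1.18, a kappa minus isotype difference of -0.30 to 0.01, B cell medians of 0.21 to 0.84, plasma cell medians of -0.0749 to 0.24, -0.27 to -0.08 for Igkv4-91, and 0 probe sets passing. The replicate numbers did not pair the samples: deviations of same-numbered arrays correlated at 0.472, -0.508 and 0.314. With the replicate block the kappa and isotype medians were 0.52 and 0.82, and 0 probe sets passed. Without detection calls, low signal limits Ighg3, Igkv9-120, Igkv8-30 and Igkv4-91 most. It also limits Igkv5-43 in reconRAG1KO, where replicates 1, 3 and 4 read 4.47, 3.65 and 3.74. With a pseudocount of 16 the difference of Igkv5-43 was 2.16 instead of 2.86.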
